A study of Arabidopsis thaliana with 12 samples.

Results

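The genes described here are the core cell cycle genes of *Arabidopsis thaliana*: the D, B and A cyclins, the cyclin-dependent kinases (CDKs) of the A and B types, the KIP-RELATED PROTEIN (KRP) inhibitors, the E2F transcription factors with RETINOBLASTOMA-RELATED1 (RBR1), and the replication licensing genes with the PCNA genes. They were chosen by gene identity, though with earlier results of these data known. A locus of the L*er* genome was a member when the homolog column of the deposited tables listed 1 of 49 chosen Col genes, which gave 49 of the 27147 L*er* loci. These were 8 D cyclins, 9 B cyclins, 7 A cyclins, 5 CDKs, 7 KRPs, 4 loci of the E2F and RBR1 group, and 9 loci for CDC6, MCM2 to MCM7 and PCNA. For 43 of them a single Col homolog was listed. The other 6 loci each listed both genes of a pair (CDKB1, CDKB2 or PCNA), so they are given by locus name, and reads may have been divided between the copies.

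As background, D cyclins bind the A-type CDK in response to hormones and sugar, and the active kinase phosphorylates RBR1. This frees E2F factors to switch on genes for DNA replication, among them CDC6 and the MCM genes, which load the replicative helicase onto origins, and PCNA, the sliding clamp of the DNA polymerases. A and B cyclins act later with the CDKs, in S phase, G2 and mitosis, and KRP proteins bind cyclin-CDK complexes and inhibit them.

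RNA was sequenced from *dme-2* de novo shoots, WT de novo shoots, *dme-2* callus and WT callus, with 3 biological replicates in each of the 4 groups. All plants were of the L*er* ecotype, and *dme-2*, labelled dme-2/- in the sample records, is a mutation in DEMETER (DME), which encodes an enzyme that excises methylated cytosine from DNA. Callus was grown from true leaves of seedlings, taken 14 days after germination, during 7 days in the dark on callus-inducing medium (CIM) with the auxin 2,4-D and the cytokinin kinetin. De novo shoots came from such calli after up to 14 more days on shoot-inducing medium (SIM) in long days, so stage, medium, light and age cannot be told apart. Each library is a bulk sample, in which fewer cells of a type and less RNA per cell cannot be told apart.

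Total counts were between 12981250 and 20128757 per library. The DME locus itself had 7.89, 7.49 and 7.89 TPM (a transcript level scaled for length and library total) in *dme-2* shoots, against 19.4, 18.9 and 18.7 TPM in WT shoots. In *dme-2* callus it had 3.21, 3.14 and 3.54 TPM, against 13.2, 11.2 and 10.1 TPM in WT callus, so DME was lower in every mutant library, and reads from the locus remained. The summed level of 9 callus and lateral root primordium markers was 94.3 to 128 TPM in *dme-2* callus and 102 to 123 TPM in WT callus, against at most 29.4 TPM in any shoot library, and STM, WUS and CLV3, markers of the shoot meristem, summed to at most 0.0600 TPM in any callus library. Of the 9 callus markers 7 were lower in WT shoots than in WT callus (edgeR), but SCR was higher, with a mean of 17.5 TPM in WT shoots, against 6.03 TPM in WT callus, and PLT5 was not called. In *dme-2* SCR was likewise higher (13.7 TPM in shoots, against 6.43 TPM in callus), so these 2 genes did not mark the callus here. The 3 count columns labelled *dme-2* callus disagreed with the TPM columns of the same name, so comparisons with *dme-2* callus rest on TPM.

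Calli varied more than shoots. The median standard deviation (SD) of log2 TPM over 18813 loci was 0.234 in *dme-2* callus and 0.207 in WT callus, against 0.105 in *dme-2* shoots and 0.0902 in WT shoots. For the cell cycle loci 1 library in each callus group stood apart: *dme-2* callus replicate 2 had the lowest TPM of its group for 43 of the 49 loci, and WT callus replicate 3 had the lowest for 43 of 49. Among the 29 loci of the licensing, PCNA, A and B cyclin and B-type CDK groups these counts were 29 and 28. Counts of calls that rest on callus are therefore also given without these libraries, and single loci where their call changed. Because these libraries were set apart by the same loci, calls gained without them are not independent support.

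Levels of the 49 loci spanned a wide range, and the members that led it differed with the stage. In shoots CDKA;1 (AT3G48750), the kinase that drives both S phase and mitosis in plants, had the highest mean level of the 49, at 72.8 ± 3.8 TPM in *dme-2* shoots and 56.8 ± 3.9 TPM in WT shoots (SD, n = 3 each). In callus the highest mean belonged to the inhibitor KRP1 (AT2G23430), at 80.4 ± 11.3 TPM in *dme-2* callus and 86.2 ± 0.54 TPM in WT callus. The lowest mean in all 4 groups was that of ATLER-2G58240, a CDKB1 locus, which had 0.503 TPM in *dme-2* shoots and 0.900 TPM in WT shoots, and 0.150 TPM in *dme-2* callus and 0.140 TPM in WT callus. A mean of at least 1 TPM was reached by 47 loci in *dme-2* shoots, 48 in WT shoots, 42 in *dme-2* callus and 43 in WT callus.

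Families differed in their range of levels. Mean levels of single D cyclins were 3.23 to 41.2 TPM in *dme-2* shoots, 5.17 to 48.8 TPM in WT shoots, 0.373 to 13.1 TPM in *dme-2* callus and 0.657 to 13.6 TPM in WT callus. B cyclins had means of 1.32 to 17.0 TPM in *dme-2* shoots, 2.78 to 24.99 TPM in WT shoots, 1.62 to 7.57 TPM in *dme-2* callus and 2.35 to 9.31 TPM in WT callus. Licensing and PCNA loci had means of 2.71 to 22.8 TPM in *dme-2* shoots, 4.16 to 37.8 TPM in WT shoots, 0.943 to 8.44 TPM in *dme-2* callus and 1.05 to 8.37 TPM in WT callus. The highest mean was in WT shoots in these 3 families and also among A cyclins (19.3 TPM) and the E2F and RBR1 loci (23.7 TPM), whereas it was in *dme-2* shoots among CDKs (72.8 TPM) and in WT callus among KRPs (86.2 TPM).

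**Figure D1:**
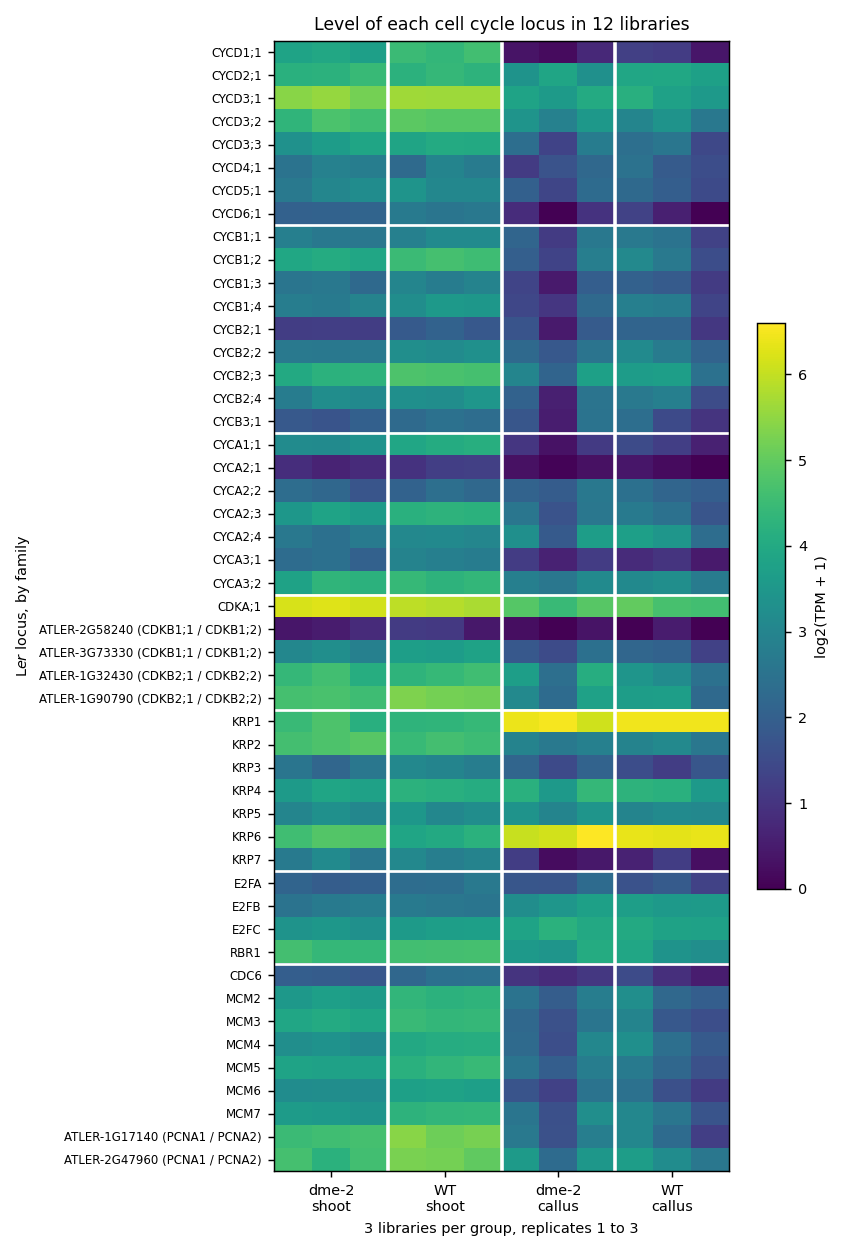
Levels of the 49 cell cycle loci (rows, grouped by family) in the 12 libraries (columns, replicates 1 to 3 of each group), as log2(TPM + 1) on the colour scale. KRP1 and KRP6 are the brightest rows in the callus columns, with means of 76.8 to 86.2 TPM, and rows of the licensing and PCNA group are brightest in WT shoots.

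Shoots were compared with callus of the same genotype to ask how the cell cycle genes differed between the callus stage and regenerated shoots. Most of them were higher in shoots. In WT, 34 of the 49 loci were higher in shoots and 7 were lower at an adjusted p under 0.05 (edgeR quasi-likelihood test on counts, Benjamini-Hochberg adjustment over 19616 loci), whereas of all loci tested 43.4% were higher and 38.4% lower. The median log2 fold change was 0.99 over the members and 0.14 over all loci. This all-loci median depends on the scaling: it was 0.68 with library size only and 0.58 on the TPM scale, and with library size only 38 members were higher and 3 lower, against 56.9% and 26.9% of all loci.

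In *dme-2*, 32 of 47 loci tested were higher in shoots than in callus and 4 were lower (limma on log2(TPM + 1), adjusted over 18729 loci), beside 49.02% higher and 23.8% lower among all loci. The median difference was 1.20 over the members and 0.48 over all loci. When TPM was rescaled so that the all-loci median became 0.05, 24 members were higher and 6 lower, beside 35.05% and 34.5% of all loci. Without the low callus library the counts were 33 higher and 9 lower in WT (43.2% and 39.3% of all loci), and 31 higher and 7 lower in *dme-2* (49.2% and 23.9%). By limma on TPM 35 of 47 members tested were higher and 3 lower in WT, beside 54.9% and 26.9% of all loci. The edgeR changes in WT and the limma differences in *dme-2* given below are on unlike scales, so their sizes cannot be set against each other.

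The libraries themselves showed the same direction. All 3 shoot libraries lay above all 3 callus libraries for 37 members and below for 4 in WT, beside 56.7% and 28.1% of loci whose mean reached 1 TPM. In *dme-2* these counts were also 37 and 4, beside 52.7% and 25.8%.

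The licensing and PCNA loci were higher in shoots. All 9 rose in WT, by 1.19 to 2.52 on the log2 scale (edgeR on counts), also without WT callus replicate 3. All 9 rose in *dme-2*, by 0.93 to 2.20 (limma on TPM). By limma on TPM the rises in WT were 1.39 to 3.09. In *dme-2* the call of MCM4 was lost without *dme-2* callus replicate 2 (0.59, limma adjusted p = 0.0673), and with rescaled TPM those of MCM4 (0.56, limma adjusted p = 0.147) and MCM7 (0.65, limma adjusted p = 0.136) were lost. Their summed level was 186, 180 and 180 TPM in WT shoots, against 62.4, 34.0 and 20.11 TPM in WT callus. It was 114, 112 and 113 TPM in *dme-2* shoots, against 41.6, 20.09 and 54.9 TPM in *dme-2* callus. No callus library reached the lowest shoot library of its own genotype.

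The PCNA locus ATLER-1G17140 showed the largest fitted rise of this group. It had 42.0, 34.3 and 37.1 TPM in WT shoots, against 7.25, 3.90 and 1.33 TPM in WT callus, a log2 fold change of 2.52 (SE 0.30, edgeR adjusted p = 4.60e-05). Shoots of *dme-2* had 21.5, 22.9 and 23.9 TPM, against 5.31, 2.12 and 6.05 TPM in *dme-2* callus, a difference of 2.20 (SE 0.30, limma adjusted p = 0.000563). By limma on TPM the WT difference was 3.09 (SE 0.42, adjusted p = 0.000452). The groups did not overlap in either genotype. The other PCNA locus, ATLER-2G47960, rose by 1.75 in WT (SE 0.22, edgeR adjusted p = 6.32e-05).

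Among the subunits of the MCM helicase, MCM3 (AT5G46280) had 21.3, 19.8 and 20.16 TPM in WT shoots, against 6.87, 2.49 and 2.00 TPM in WT callus, a fitted rise of 1.94 (SE 0.33, edgeR adjusted p = 0.000562). MCM3 in *dme-2* stood at 14.0, 15.3 and 13.7 TPM in shoots, against 3.68, 2.11 and 4.95 TPM in callus, a rise of 1.79 (SE 0.24, limma adjusted p = 0.000481). MCM5 rose by 1.85 (SE 0.25, edgeR adjusted p = 0.000114) and MCM6 by 1.83 (SE 0.34, edgeR adjusted p = 0.000904) in WT. Every shoot library lay above every callus library for all 9 loci of this group, in both genotypes.

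D cyclins, which couple outside signals to entry into the cycle, were also higher in shoots. Of the 8 loci, 7 rose in WT and 8 rose in *dme-2*, and 6 rose in WT without WT callus replicate 3, when CYCD4;1 lost its call (0.47, edgeR adjusted p = 0.0992). With rescaled TPM 6 rose in *dme-2*, and CYCD2;1 (0.31, limma adjusted p = 0.246) and CYCD4;1 (0.69, limma adjusted p = 0.0571) were not called. CYCD1;1 (AT1G70210) had 21.4, 19.6 and 23.2 TPM in WT shoots, against 1.38, 1.25 and 0.310 TPM in WT callus, with a log2 fold change of 4.07 (SE 0.31, edgeR adjusted p = 2.73e-06), and its counts in WT callus were 24, 37 and 8. Levels in *dme-2* were 13.2, 14.4 and 12.2 TPM in shoots, against 0.280, 0.140 and 0.700 TPM in callus, a difference of 3.40 (SE 0.19, limma adjusted p = 5.77e-06). It thus reached at most 1.38 TPM in the 6 callus libraries and at least 12.2 TPM in the 6 shoot libraries.

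CYCD6;1 (AT4G03270), known from formative divisions in the root, had 5.44, 4.87 and 5.21 TPM in WT shoots, against 1.48, 0.490 and 0 TPM in WT callus (log2 fold change 2.33, SE 0.43, edgeR adjusted p = 0.000893). Its counts in WT callus were only 16, 24 and 3. The most abundant D cyclin in shoots, CYCD3;1 (AT4G34160), a cytokinin-responsive gene, had 49.3, 48.3 and 48.7 TPM in WT shoots, against 17.0, 12.8 and 10.9 TPM in WT callus. In *dme-2* its difference between shoots and callus was 1.58 (SE 0.15, limma adjusted p = 8.32e-05). Summed over the 8 loci, D cyclins stood at 151 ± 0.43 TPM in WT shoots, against 45.6 ± 10.1 TPM in WT callus (SD, n = 3 each). In *dme-2* the sum was 123 ± 9.5 TPM in shoots, against 42.7 ± 6.6 TPM in callus.

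The D cyclin that was not called in WT, CYCD2;1, was singled out after its values were seen, because its direction depends on the scaling. Its TPM in WT shoots was 17.8, 20 and 18.04, against 14.0, 14.3 and 12.4 in WT callus, while edgeR with TMM normalization gave a log2 fold change of -0.11 (SE 0.11, adjusted p = 0.379) and limma on TPM gave 0.43 (SE 0.10, adjusted p = 0.00673).

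Cyclins of the later phases gave counts that depended on the scaling and on the low callus libraries. Of the 7 A cyclins, 5 rose and 1 fell in WT shoots relative to WT callus by edgeR, and of the 9 B cyclins 3 rose and 6 were not called, while limma on TPM called 4 of 6 A cyclins and 6 of 9 B cyclins higher in WT and none lower. Among all loci 43.4% were higher in WT by edgeR and 54.9% by limma on TPM. In *dme-2*, 4 of 6 A cyclins tested and 5 of 9 B cyclins rose by limma and none was called lower, but only 2 B cyclins rose with rescaled TPM. The shares of all loci that were higher in *dme-2* were 49.02% and, with rescaled TPM, 35.05%. The share of B cyclins that rose was 33.3% in WT by edgeR, below that of all loci. It was 55.6% in *dme-2* by limma without rescaling, near that of all loci.

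Without the low callus library, CYCA2;4 and CYCB2;1, singled out after their values were seen, were called lower in shoots in both genotypes. CYCA2;4 was then at -0.90 in *dme-2* (limma adjusted p = 0.00383) and -0.95 in WT (edgeR adjusted p = 7.73e-05), and CYCB2;1 at -0.59 in *dme-2* (limma adjusted p = 0.0154) and -0.96 in WT (edgeR adjusted p = 0.00196). With all libraries neither was called in either genotype. The libraries left out were set apart because cell cycle loci were lowest in them, so leaving them out raises the callus level of such loci. These falls are therefore not independent evidence, in either genotype. Without the low callus library the B cyclins counted 5 higher and 1 lower in *dme-2* and 4 higher and 1 lower in WT, where CYCB1;4 gained a call (0.39, edgeR adjusted p = 0.0236).

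The A cyclin with the largest fitted rise was CYCA1;1 (AT1G44110). It had 13.9, 15.7 and 16.4 TPM in WT shoots, against 1.85, 1.34 and 0.510 TPM in WT callus (log2 fold change 2.99, SE 0.32, edgeR adjusted p = 2.35e-05). In *dme-2*, levels were 8, 7.86 and 9.29 TPM in shoots, against 1.07, 0.250 and 1.17 TPM in callus (difference 2.40, SE 0.24, limma adjusted p = 0.000103).

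Further rises in WT among A cyclins were 2.24 for CYCA3;1 (SE 0.26, edgeR adjusted p = 4.61e-05) and 2.20 for CYCA2;1 (SE 0.50, edgeR adjusted p = 0.00290), the second from only 17 to 41 counts in WT shoot libraries and 3 to 7 in WT callus libraries. The largest fitted rise among B cyclins, the regulators of entry into mitosis, was that of CYCB1;2 (AT5G06150), which had 21.6, 24.0 and 22.3 TPM in WT shoots, against 7.64, 5.30 and 1.93 TPM in WT callus (1.68, SE 0.38, edgeR adjusted p = 0.00291). In *dme-2* its difference was 1.91 (SE 0.35, limma adjusted p = 0.00234), while limma on TPM gave 2.12 in WT (SE 0.37, adjusted p = 0.00153). This B cyclin lies 171 loci from DME in the locus order of chromosome 5.

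The spread of the callus libraries was wide for these cyclins. CYCB1;1 (AT4G37490), the widely used marker of cells in G2 and mitosis, had 6.33, 7.94 and 7.96 TPM in WT shoots, against 5.32, 4.72 and 1.48 TPM in WT callus. In *dme-2* it had 6.20, 5.18 and 5.09 TPM in shoots, against 3.44, 1.21 and 5.27 TPM in callus. The shoot and callus libraries did not overlap in WT and overlapped in *dme-2*, and the difference was not called in *dme-2*. In WT edgeR did not call it (0.58, SE 0.38, adjusted p = 0.181), and limma on TPM did (0.90, SE 0.36, adjusted p = 0.0496). Summed over the 20 loci of A cyclins, B cyclins and B-type CDKs, levels were 237 ± 3.2 TPM in WT shoots, against 85.5 ± 36.7 TPM in WT callus. In *dme-2* they were 165 ± 9.5 TPM in shoots, against 75.0 ± 39.3 TPM in callus.

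All 5 CDK loci rose in WT by edgeR, by 0.62 to 1.58. For 1 of them, ATLER-2G58240, counts in WT callus were only 4, 7 and 4, and TPM overlapped between WT shoots and WT callus. In *dme-2*, 3 of 4 tested rose. CDKA;1 had 60.4, 57.4 and 52.7 TPM in WT shoots, against 31.5, 24.6 and 23.4 TPM in WT callus. The *dme-2* libraries had 72.6, 76.7 and 69.1 TPM in shoots, against 28.2, 21.2 and 28.6 TPM in callus, a difference of 1.46 (SE 0.14, limma adjusted p = 7.58e-05). Shoots and callus were fully separated for this gene in both genotypes. The CDKB2 locus ATLER-1G90790 also rose in *dme-2*, by 1.58 (SE 0.34, limma adjusted p = 0.00518).

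The KRP inhibitors moved in both directions. In WT, 3 rose (KRP2, KRP3 and KRP7) and 4 fell (KRP1, KRP4, KRP5 and KRP6), and in *dme-2*, KRP2 and KRP7 rose and KRP1 and KRP6 fell. KRP1 had 18.5, 19.0 and 20.4 TPM in WT shoots, against 85.8, 86.0 and 86.8 TPM in WT callus, a log2 fold change of -2.45 (SE 0.11, edgeR adjusted p = 7.33e-08). KRP1 levels in *dme-2* were 21.3, 26.2 and 16.9 TPM in shoots, against 83.2, 90.1 and 68.0 TPM in callus (-1.87, SE 0.18, limma adjusted p = 9.41e-05). KRP1 was lower in every shoot library than in any callus library.

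KRP6 (AT3G19150) followed the same order. It had 13.7, 15.2 and 17.7 TPM in WT shoots, against 81.7, 79.1 and 81.6 TPM in WT callus (-2.77, SE 0.11, edgeR adjusted p = 3.85e-08). In *dme-2* it had 22.7, 27.3 and 26.4 TPM in shoots, against 65.0, 70.0 and 95.5 TPM in callus (-1.54, SE 0.17, limma adjusted p = 0.000152). Together KRP1 and KRP6 made up 33.6% to 39.2% of the summed KRP level in WT shoots, against 82.4% to 86.6% in WT callus. In *dme-2* they made up 42.5% to 47.1% in shoots, against 79.5% to 86.6% in callus.

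KRP7 and KRP2 moved the other way. KRP7 (AT1G49620) had 7.50, 6.07 and 6.74 TPM in WT shoots, against 0.540, 1.28 and 0.200 TPM in WT callus (2.76, SE 0.32, edgeR adjusted p = 3.93e-05), from only 5, 13 and 5 counts in WT callus. In *dme-2* it had 5.53, 7.90 and 5.16 TPM in shoots, against 1.31, 0.170 and 0.350 TPM in callus (2.21, SE 0.29, limma adjusted p = 0.000453). KRP2 (AT3G50630), reported to hold back lateral root initiation, had 23.7, 26.0 and 28.5 TPM in *dme-2* shoots, against 6.73, 5.31 and 6.26 TPM in *dme-2* callus (1.93, SE 0.13, limma adjusted p = 1.60e-05). Both genes were higher in every shoot library than in any callus library.

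The falls of KRP4 and KRP5 in WT depend on the scaling. By edgeR with TMM normalization they were -0.41 (SE 0.17, adjusted p = 0.0465) and -0.72 (SE 0.15, adjusted p = 0.00218). On the TPM scale limma gave for WT 0.15 (adjusted p = 0.469) and 0.19 (adjusted p = 0.252), and the WT shoot and callus libraries overlapped for both. The same holds for the A cyclin CYCA2;2, at -0.59 by edgeR (SE 0.22, adjusted p = 0.0301) and 0.04 by limma on TPM (adjusted p = 0.815). In *dme-2* neither KRP was called, but with rescaled TPM limma called both KRP4 (-0.74, adjusted p = 0.00850) and KRP5 (-0.57, adjusted p = 0.0112) lower, and KRP4 also without *dme-2* callus replicate 2 (-0.55, adjusted p = 0.0106).

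**Figure D2:**
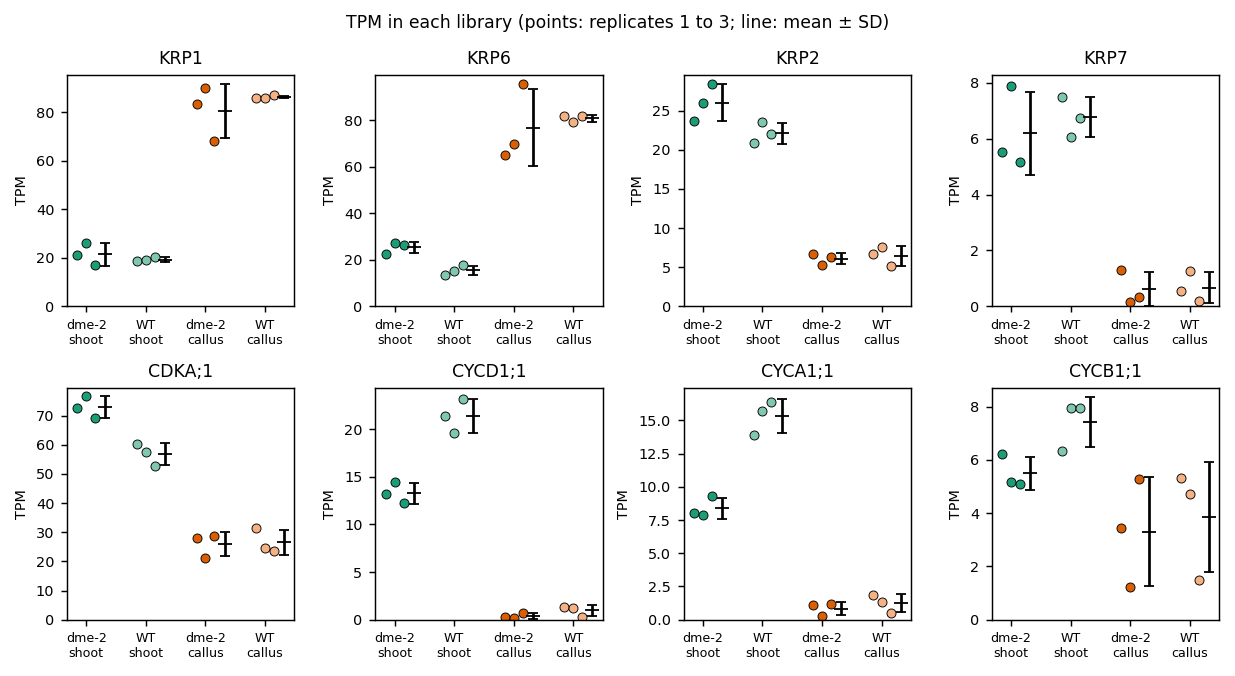
TPM of 8 cell cycle loci in each library (points, replicates 1 to 3 from left to right), with the mean ± SD of the 3 libraries of each group beside them. KRP1 and KRP6 lie at 65.0 to 95.5 TPM in callus libraries and at 13.7 to 27.3 TPM in shoot libraries, and the other 6 loci have higher mean levels in shoots.

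Within the E2F and RBR1 group, E2FA and RBR1 rose in WT shoots, and E2FB and E2FC fell. E2FB (AT5G22220), an activating E2F, had 5.63, 5.15 and 4.95 TPM in WT shoots, against 11.97, 10.6 and 11.02 TPM in WT callus (-1.51, SE 0.14, edgeR adjusted p = 1.07e-05). The *dme-2* libraries had 4.67, 5.42 and 5.91 TPM in shoots, against 8.44, 10.1 and 12.4 TPM in callus (-0.82, SE 0.17, limma adjusted p = 0.00393). The groups were separate in both genotypes. E2FC, which acts mainly as a repressor, fell by 0.78 on the log2 scale in WT (SE 0.11, edgeR adjusted p = 0.000132), a call that was lost with library size only (-0.24, edgeR adjusted p = 0.0846) and by limma on TPM (-0.20, adjusted p = 0.132). In *dme-2* it fell by 0.61 (SE 0.14, limma adjusted p = 0.00622). RBR1 rose in *dme-2* as well, a call that was lost with rescaled TPM (0.34, limma adjusted p = 0.0904), and E2FA was not called there. In WT the call of E2FA was lost without WT callus replicate 3 (0.42, edgeR adjusted p = 0.0672).

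**Figure D3:**
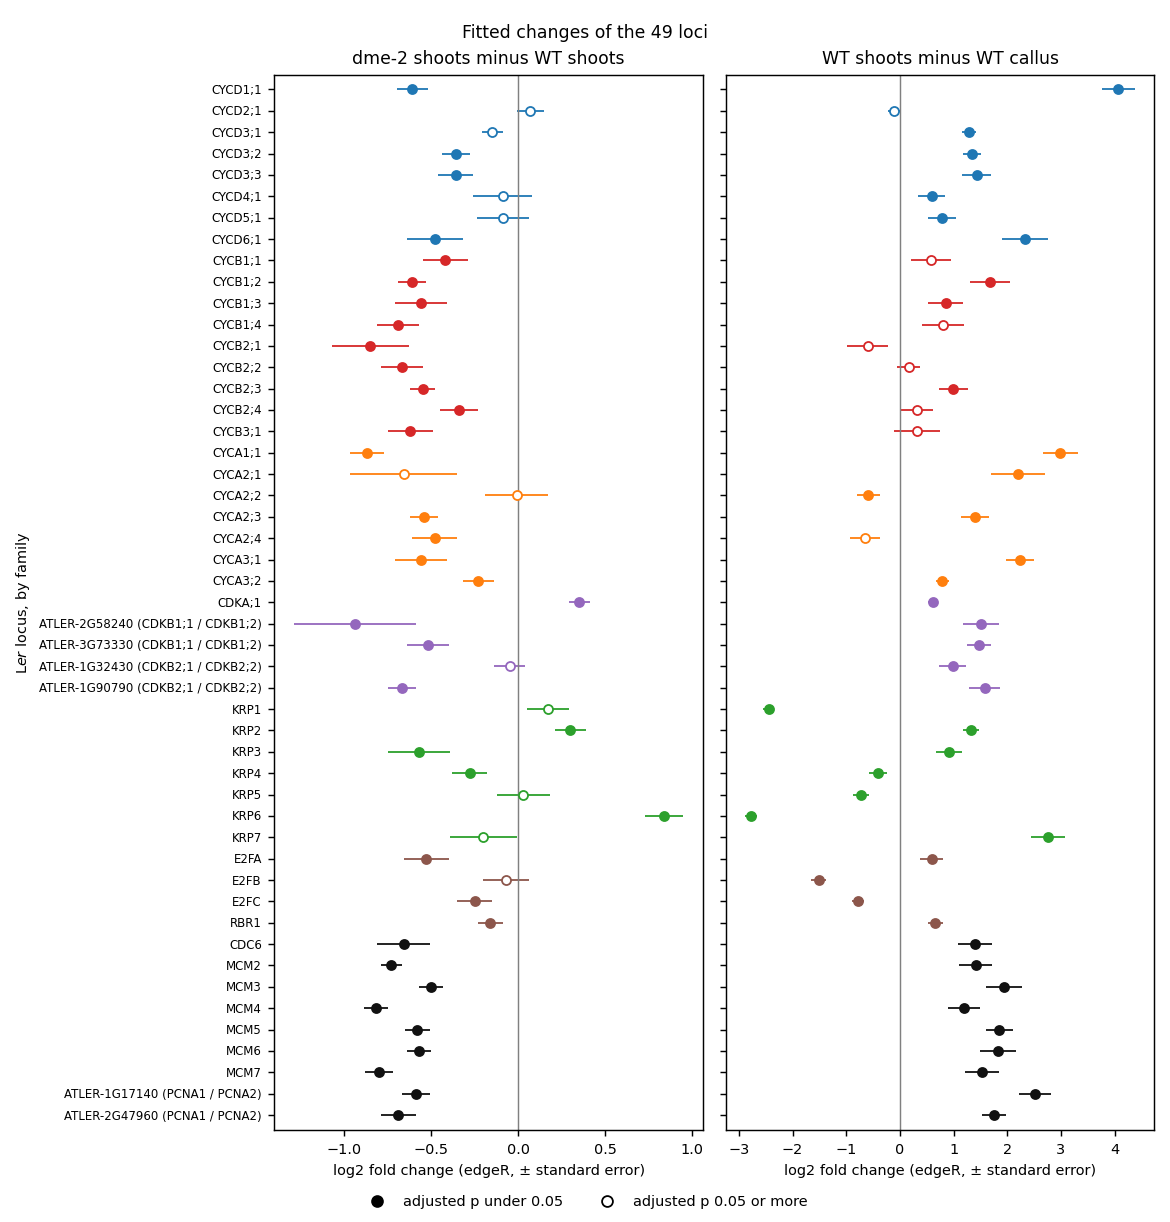
Fitted log2 fold changes by edgeR (points) with their standard errors (lines) for the 49 loci, for *dme-2* shoots minus WT shoots (left) and WT shoots minus WT callus (right). Filled points passed an adjusted p of 0.05. On the left, 35 filled points lie below 0 and 3 above it, and on the right 34 lie above 0 and 7 below it.

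Shoots of *dme-2* were then compared with WT shoots to ask how the loss of DME function went with cell cycle gene expression at this stage. Most of the loci were lower in *dme-2*, by less than 1 on the log2 scale. The comparison shares its WT shoot libraries with that of WT shoots and WT callus. At an adjusted p under 0.05 (edgeR, adjusted over 19114 loci), 35 of the 49 loci were lower in *dme-2* shoots and 3 were higher, whereas of all loci tested 26.1% were lower and 26.7% higher. The median log2 fold change was -0.52 over the members and 0 over all loci. In 33 loci all 3 *dme-2* shoot libraries lay below all 3 WT shoot libraries and in 3 loci all lay above, beside 28.2% and 25.3% among loci whose mean reached 1 TPM.

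The size of these differences was limited. No member passed the cut-off used in the study, a log2 fold change above 1 or below -1 with an unadjusted p under 0.05, while 40 of the 49 had an unadjusted p under 0.05 in the same edgeR fit. Of all loci tested, 7.08% passed this cut-off. DESeq2 called 3 loci higher and 30 lower, beside 23.6% and 22.8% of all loci, and limma on TPM called 2 higher and 30 lower, beside 20.4% and 21.5%. When the 3 WT callus libraries joined the fit, so that callus and shoots shared 1 estimate of spread, 14 loci were called, 12 lower and 2 higher, beside 11.8% and 15.4% of all loci. Of these 12, 6 were licensing or PCNA loci, 3 were CDK loci, and 1 each was a D, B and A cyclin.

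Licensing and PCNA loci were lower in *dme-2* shoots in all 9 cases, by 0.50 to 0.82 on the log2 scale. Their summed level was 114, 112 and 113 TPM in *dme-2* shoots, against 186, 180 and 180 TPM in WT shoots. MCM4 (AT2G16440) had 8.51, 9.30 and 7.83 TPM in *dme-2* shoots, against 14.7, 15.9 and 16.3 TPM in WT shoots (-0.82, SE 0.07, edgeR adjusted p = 1.55e-09). None of the 9 loci overlapped between the genotypes.

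MCM7 (AT4G02060) had 11.3, 10.9 and 9.56 TPM in *dme-2* shoots, against 18.1, 19.3 and 19.8 TPM in WT shoots (-0.80, SE 0.08, edgeR adjusted p = 3.53e-09). MCM2 (AT1G44900) had 10.5, 12.1 and 10.99 TPM in *dme-2* shoots, against 19.2, 17.9 and 18.4 TPM in WT shoots (-0.73, SE 0.06, edgeR adjusted p = 7.57e-10). All 6 MCM genes, which encode the ring of the replicative helicase, were thus lower together. The PCNA locus ATLER-2G47960 had 23.9, 17.5 and 23.1 TPM in *dme-2* shoots, against 37.3, 35.9 and 30.9 TPM in WT shoots (-0.69, SE 0.10, edgeR adjusted p = 3.66e-06). CDC6 (AT2G29680), which recruits the MCM ring to origins, had 2.92, 2.76 and 2.45 TPM in *dme-2* shoots, against 3.57, 4.43 and 4.47 TPM in WT shoots (-0.66, SE 0.15, edgeR adjusted p = 0.000935), a call lost in the fit over 9 libraries (edgeR adjusted p = 0.0551).

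All 9 B cyclins were lower in *dme-2* shoots, with fitted differences between -0.85 and -0.34, and no B cyclin overlapped between the genotypes. The largest was that of CYCB2;1, which had 1.31, 1.33 and 1.31 TPM in *dme-2* shoots, against 2.63, 3.22 and 2.5 TPM in WT shoots (-0.85, SE 0.22, edgeR adjusted p = 0.00240). CYCB1;4 had 5.93, 5.49 and 6.70 TPM in *dme-2* shoots, against 8.32, 10.6 and 10.2 TPM in WT shoots (-0.69, SE 0.12, edgeR adjusted p = 2.70e-05). The other named falls were those of CYCB2;2 (-0.67, SE 0.12, edgeR adjusted p = 6.09e-05) and CYCB3;1 (-0.62, SE 0.13, edgeR adjusted p = 0.000416). In the fit over 9 libraries only CYCB2;2 of the B cyclins kept its call, at nearly the same fitted differences, and the adjusted p was 0.0813 for CYCB2;1, 0.103 for CYCB1;4 and 0.193 for CYCB3;1.

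A cyclins were lower in 5 of 7 cases and none was higher, beside 26.1% lower and 26.7% higher among all loci. For 1 of the 5, CYCA3;2, the difference was small (-0.23, SE 0.09, edgeR adjusted p = 0.0438). Its libraries overlapped between the genotypes, and limma on TPM did not call it (adjusted p = 0.201). CYCA1;1 had 8, 7.86 and 9.29 TPM in *dme-2* shoots, against 13.9, 15.7 and 16.4 TPM in WT shoots (-0.87, SE 0.10, edgeR adjusted p = 9.13e-08). The genotypes were widely separated for this gene. Of the 8 D cyclins, 4 were lower and 4 were not called. CYCD1;1 had 13.2, 14.4 and 12.2 TPM in *dme-2* shoots, against 21.4, 19.6 and 23.2 TPM in WT shoots, without overlap. CYCD6;1 had 3.16, 3.21 and 3.33 TPM in *dme-2* shoots, against 5.44, 4.87 and 5.21 TPM in WT shoots, and was also lower in every *dme-2* library. The summed level of the 8 D cyclins was 123 ± 9.5 TPM in *dme-2* shoots, against 151 ± 0.43 TPM in WT shoots (SD, n = 3 each).

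The B-type CDK loci, whose kinases act at G2 and mitosis, were lower in 3 of 4 cases. ATLER-1G90790 had 24.3, 24.9 and 22.5 TPM in *dme-2* shoots, against 39.1, 35.9 and 35.0 TPM in WT shoots (-0.67, SE 0.08, edgeR adjusted p = 5.33e-08). ATLER-2G58240 gave the largest fitted fall of all members, -0.94 (SE 0.35, edgeR adjusted p = 0.0281), from 9 to 12 counts in *dme-2* shoot libraries and 17 to 22 in WT shoot libraries. Its TPM overlapped between the genotypes, at 0.330, 0.420 and 0.760 in *dme-2* shoots, against 1.23, 1.12 and 0.350 in WT shoots, and DESeq2 did not call it (adjusted p = 0.0824).

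The 3 loci that were higher in *dme-2* shoots were KRP6, CDKA;1 and KRP2. KRP6 had 22.7, 27.3 and 26.4 TPM in *dme-2* shoots, against 13.7, 15.2 and 17.7 TPM in WT shoots (0.84, SE 0.11, edgeR adjusted p = 4.57e-07). CDKA;1 had 72.6, 76.7 and 69.1 TPM in *dme-2* shoots, against 60.4, 57.4 and 52.7 TPM in WT shoots (0.35, SE 0.06, edgeR adjusted p = 1.27e-05). The libraries of the genotypes did not overlap for either gene.

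KRP2 had 23.7, 26.0 and 28.5 TPM in *dme-2* shoots, against 20.8, 23.5 and 22.1 TPM in WT shoots (0.30, SE 0.09, edgeR adjusted p = 0.00997). Here the lowest *dme-2* library lay just above the highest WT library, and the call was lost without WT shoot replicate 2 (0.26, edgeR adjusted p = 0.0525) and in the fit over 9 libraries (edgeR adjusted p = 0.0789). KRP3 and KRP4 were lower in *dme-2* shoots, and KRP1, KRP5 and KRP7 were not called. The summed KRP level was 104 ± 8.8 TPM in *dme-2* shoots and 95.9 ± 1.1 TPM in WT shoots (SD, n = 3 each). E2FA, E2FC and RBR1 were lower in *dme-2* shoots by edgeR, and E2FB was not called. The RBR1 difference was small (-0.16, SE 0.07, edgeR adjusted p = 0.0459), and its libraries overlapped between the genotypes. By limma on TPM RBR1 was not called (adjusted p = 0.166), and the fit over 9 libraries called no locus of the E2F and RBR1 group.

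**Figure D4:**
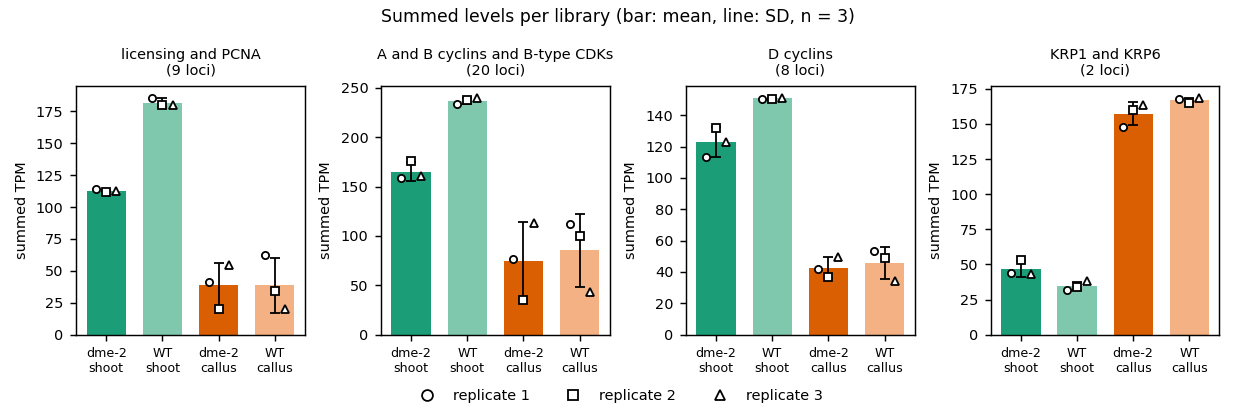
Summed TPM of 4 groups of cell cycle loci in each library (symbols), with the mean (bar) and SD (line) of the 3 libraries per group. The licensing and PCNA loci sum to 112 to 114 TPM in *dme-2* shoots, against 180 to 186 TPM in WT shoots, while the callus libraries of both genotypes range over 20.09 to 62.4 TPM.

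Markers of other cells also differed between the shoots of the 2 genotypes. STM, which maintains the shoot meristem, had 18.5, 21.4 and 17.4 TPM in *dme-2* shoots, against 8.90, 9.55 and 8.87 TPM in WT shoots. The sum of STM, WUS and CLV3 was 17.7 to 22.4 TPM in *dme-2* shoots, against 9.51 to 9.93 TPM in WT shoots, and nearly all of it was STM. Mean WUS was 0.153 TPM in *dme-2* shoots and 0.107 TPM in WT shoots. Mean CLV3 was 0.327 TPM in *dme-2* shoots and 0.450 TPM in WT shoots. Both were too low to be tested. RCA, which encodes Rubisco activase of green tissue, was the 1 leaf marker of 4 that could be paired, and it had 1480 to 1557 TPM in *dme-2* shoots, against 1938 to 1974 TPM in WT shoots. The 9 callus markers summed to 23.8 to 24.9 TPM in *dme-2* shoots, against 27.0 to 29.4 TPM in WT shoots, with 4 of them at 0 in all *dme-2* shoot libraries and 3 at 0 in all WT shoot libraries. Most of these sums came from SCR (means 13.7 and 17.5 TPM) and PLT5 (7.62 and 7.32 TPM), which did not mark the callus here. Of the rest, WOX5 was lower in *dme-2* shoots (0.877 against 2.05 TPM), and LBD18 was not called (1.95 against 1.19 TPM). The sums therefore do not measure callus-like tissue in shoots. The part of these cells in the cell cycle differences was not tested.

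Calli of *dme-2* were compared with WT calli in the same way, and no cell cycle locus was called. Of the 42 members whose mean reached 1 TPM, limma called 0 at an adjusted p under 0.05 and 0 at an unadjusted p under 0.05. Among all 17029 loci tested, limma called 0.141% after adjustment (0.0529% higher and 0.0881% lower), and 8.06% had an unadjusted p under 0.05. The libraries of the genotypes overlapped for all 49 loci, whereas 7.53% of loci whose mean reached 1 TPM lay fully higher and 5.75% fully lower. The median difference was -0.03 over the members and 0.04 over all loci. With *dme-2* callus replicate 2 and WT callus replicate 3 both left out, a setting chosen after seeing the data, limma again called 0 members, beside 0.00582% of all loci.

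The 3 loci with the smallest unadjusted p did not pass. CYCD2;1 had 9.51, 13.6 and 8.92 TPM in *dme-2* callus, against 14.0, 14.3 and 12.4 TPM in WT callus (-0.34, SE 0.19, limma adjusted p = 0.756). CYCB1;4 had 1.63, 1.07 and 3.79 TPM in *dme-2* callus, against 6.15, 5.83 and 1.54 TPM in WT callus (-0.75, SE 0.49, limma adjusted p = 0.830), so the groups overlapped. KRP3 gave 0.41 (SE 0.28, limma adjusted p = 0.847). The standard errors of the 9 B cyclins were 0.32 to 0.57 on the log2(TPM + 1) scale in this callus comparison, and what size of difference it could have detected was not tested. The summed licensing and PCNA level was 38.8 ± 17.5 TPM in *dme-2* callus and 38.8 ± 21.6 TPM in WT callus (SD, n = 3 each).

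Whether the stage change itself differed between the genotypes was tested as the interaction of genotype and stage over all 12 libraries, (*dme-2* shoots minus *dme-2* callus) minus (WT shoots minus WT callus). Of 47 loci tested, 1 was called by limma, KRP6, and it was positive. Among all 18813 loci 6.75% were called positive and 4.20% negative. The KRP6 interaction was 0.78 (SE 0.20, limma adjusted p = 0.0332), the stage difference on the log2(TPM + 1) scale being -1.54 in *dme-2* and -2.32 in WT. This call was lost when any of 8 of the 12 libraries was left out, with values between 0.67 and 0.94 over all 12 such fits.

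Without *dme-2* callus replicate 2 and WT callus replicate 3, 4 loci were called instead, 1 positive and 3 negative, beside 10.1% and 9.39% of all loci. These were the inhibitor KRP3 (-1.24, SE 0.25, limma adjusted p = 0.00904), CYCA3;1, an S-phase cyclin (-0.87, SE 0.21, limma adjusted p = 0.0212), MCM5 (-0.73, SE 0.22, limma adjusted p = 0.0490) and CYCD2;1 (0.56, SE 0.15, limma adjusted p = 0.0310), all named after their values were seen, while KRP6 was at 0.71 (limma adjusted p = 0.0614). Leaving out only *dme-2* callus replicate 2 gave 3 calls, 1 positive and 2 negative, beside 9.41% and 8.97%. In the fit with all libraries 37 of the 47 interactions were negative, with a median of -0.34 beside -0.06 over all loci, and 5 had an unadjusted p under 0.05, beside 25.6% of all loci. The 9 licensing and PCNA loci ranged from -0.89 to -0.45, and none was called, so a genotype difference at the shoot stage only was not shown for them.

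**Figure D5:**
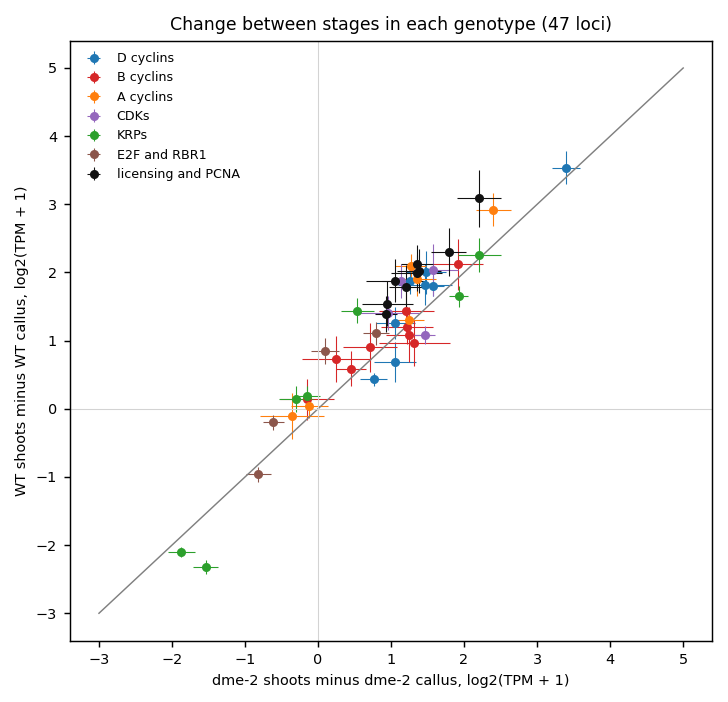
Difference between shoots and callus in *dme-2* (horizontal axis) and in WT (vertical axis) for 47 loci, both fitted by limma on log2(TPM + 1), with standard errors as lines and the diagonal of equal change in grey. The 9 licensing and PCNA loci lie above the diagonal, and KRP6 lies below it at -1.54 in *dme-2* and -2.32 in WT.

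Other genes of the cell cycle were taken from a list of 53 that holds further cyclins, origin recognition genes, SIAMESE-RELATED inhibitors, MYB3R factors and replication enzymes, of which 44 paired with 1 locus. In *dme-2* shoots against WT shoots, 19 of 42 tested were lower and 5 were higher by edgeR, beside 26.1% and 26.7% of all loci. CDT1A, the partner of CDC6 in licensing, had 6.20, 7.70 and 5.39 TPM in *dme-2* shoots, against 11.8, 10.9 and 12.8 TPM in WT shoots (-0.88, SE 0.10, edgeR adjusted p = 4.43e-08). RNR2A, a subunit of the enzyme that makes deoxynucleotides, had 12.1, 15.5 and 12.5 TPM in *dme-2* shoots, against 23.7, 20.8 and 24.5 TPM in WT shoots (-0.82, SE 0.09, edgeR adjusted p = 3.32e-08). Both genes were lower in every *dme-2* library, and MYB3R4, an activator of genes of mitosis, fell as well (-0.66, SE 0.09, edgeR adjusted p = 7.13e-07).

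The 5 that were higher in *dme-2* shoots were MYB3R3 and the inhibitors SMR2, SMR4, SMR5 and SMR7. SMR2 (AT1G08180) had 47.98, 52.9 and 50.8 TPM in *dme-2* shoots, against 36.1, 26.8 and 23.5 TPM in WT shoots (0.61, SE 0.12, edgeR adjusted p = 0.000173). SMR7, which is induced by DNA damage, had 12.9, 12.5 and 16.7 TPM in *dme-2* shoots, against 5.26, 6.47 and 3.54 TPM in WT shoots (1.78, SE 0.30, edgeR adjusted p = 1.92e-05). SMR4 rose by 0.97 in the edgeR fit (SE 0.29, adjusted p = 0.00771), but its TPM overlapped between the genotypes, at 6.93, 3.06 and 17.4 in *dme-2* shoots, against 7.14, 10.6 and 3.39 in WT shoots. SMR2 and SMR7 were thus higher in every *dme-2* shoot library, while SMR5 had counts but was listed at 0 TPM in every library.

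In callus, 1 of 37 genes of this list was called by limma, beside 0.141% of all loci. It was SIM, an inhibitor of mitosis in cells that endoreduplicate. SIM had 24.4, 22.8 and 23.6 TPM in *dme-2* callus, against 70.0, 73.1 and 68.5 TPM in WT callus (-1.54, SE 0.11, limma adjusted p = 0.00816). It lies 10 loci from DME. The 6 callus libraries fell into 2 separate sets for this gene, without the spread seen for the cyclins. The same gene had 13.8, 15.5 and 7.50 TPM in *dme-2* shoots, against 23.1, 23.0 and 23.4 TPM in WT shoots (-0.43, SE 0.15, edgeR adjusted p = 0.0156). This fitted value comes from counts, and mean TPM differed by more, at 12.3 in *dme-2* shoots and 23.2 in WT shoots. The reason was not tested, and the callus result for SIM rests on TPM alone.

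Between shoots and callus, 20 of 42 genes of the list were higher and 5 lower in WT (edgeR), beside 43.4% and 38.4% of all loci, and 21 of 39 were higher and 5 lower in *dme-2* (limma), beside 49.02% and 23.8%. The shares that were higher were near those of all loci. A listed gene without a symbol in the annotation used, AT5G02420, had 4.64, 4.44 and 3.68 TPM in WT shoots, against 90.7, 86.9 and 113.5 TPM in WT callus (-5.47, SE 0.15, edgeR adjusted p = 7.55e-09). The interaction called 1 of 39, RNR2A (-1.17, SE 0.24, limma adjusted p = 0.0105), beside 6.75% positive and 4.20% negative among all loci. The median log2 fold change of the list was -0.28 in *dme-2* shoots against WT shoots and 0.66 in WT shoots against WT callus. RNR2A had 20.7, 14.9 and 25.5 TPM in *dme-2* callus, against 13.9, 15.7 and 14.1 TPM in WT callus, so its libraries overlapped between the genotypes in callus.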

How the data were processed

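Per the labels and the study's methods, stranded mRNA libraries were sequenced, mapped to the L*er* genome with STAR 2.7.10a in two-pass mode and quantified with RSEM 1.3.1. The authors deposited whole-number counts per locus without normalization, and TPM values, which the authors scaled by length and library total. The step that made the counts is not given in the sources used here. The study called genes with DESeq2. Every column was mapped by name. The 3 count columns labelled *dme-2* callus were not used, because their log2 values and those of the same-named TPM columns differed in the median over 14182 loci by 0.962 to 1.16, against 0.0319 to 0.0831 in the other 9 libraries.

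The tool for counts was edgeR 4.0.16 (quasi-likelihood test, TMM, filterByExpr, the 6 libraries of each comparison) in R 4.3.3, and that for TPM was limma 3.58.1 (eBayes with trend, log2(TPM + 1), mean of at least 1 TPM). Differences from TPM understate the changes of low loci. All loci entered each fit, with Benjamini-Hochberg adjustment and a threshold of 0.05. All 49 members passed the filter of both count comparisons. In comparisons of TPM 42 or 47 passed. Alternatives were RLE, library size only, other filters, DESeq2 1.42.0, 9 or 12 libraries in one fit, the replicate block, limma on TPM, a pseudocount of 0.1, rescaled TPM, the cut-off of the study, and leaving out libraries. Named members were those called, at most 12 in each direction by size of change, or the 3 smallest p-values where none was called. On simulated data with 200 loci changed by a fold of 2, edgeR recovered 186 for WT shoots against WT callus and 194 for *dme-2* against WT shoots (19531 and 19106 loci), DESeq2 182 and 191, and limma, given CPM, 189 and 193. False calls were 5 to 14. The draws gave all loci and tissues the same setting of spread, without the wide spread of callus libraries, and changed only well-counted loci. They therefore do not show what could be detected in callus or for members with few counts. The comparison between calli was not simulated. The members and lists were chosen with earlier results of these data known. Gene names follow the Col homologs and were checked against RefSeq names of TAIR10.1, which held that of every member. For 2 paired genes of the further list, AT1G08180 and AT5G02420, RefSeq holds no such name. Promoter and protein sequences were not analysed here. Python 3.11.15 was used for the tables.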

Additional observations from a re-analysis of the deposited data

Results flagged for a closer look

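The stage change of KRP6 differed between the genotypes by the test of the interaction itself, at 0.78 on the log2(TPM + 1) scale (SE 0.20, limma adjusted p = 0.0332 over 18813 loci). KRP6 had 22.7, 27.3 and 26.4 TPM in *dme-2* shoots, against 65.0, 70.0 and 95.5 TPM in *dme-2* callus, and 13.7, 15.2 and 17.7 TPM in WT shoots, against 81.7, 79.1 and 81.6 TPM in WT callus. Over all 17 alternatives, those that left out libraries among them, the limma adjusted p ranged from 0.00357 to 0.0845, and 9 lost the call.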

How the results depend on the processing

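The depth of 12981250 to 20128757 counts leaves loci such as ATLER-2G58240, CYCA2;1 and KRP7 with few counts in callus, and the spread between callus libraries limits every comparison that holds them. Leaving out 1 library at a time gave 36 to 42 called members for WT shoots against WT callus, beside 15068 to 16380 of 19782 to 19906 loci. For *dme-2* shoots against WT shoots it gave 33 to 36, beside 8831 to 9967 of 19279 to 19351. For *dme-2* callus against WT callus it gave 0 to 0, beside 1 to 9 of 16950 to 17087. The range was 30 to 39 for *dme-2* shoots against *dme-2* callus, beside 11941 to 14335 of 18612 to 18798. For the interaction it was 0 to 3, beside 1271 to 3469 of 18756 to 18872. The cut-off of the study called 27 members for WT shoots against WT callus, beside 56.8% of all loci. It called 0 for *dme-2* shoots against WT shoots, beside 7.08%. For the interaction it called 0 as well, beside 809 positive and 538 negative among 18813 loci. A fit over 9 libraries called 14 for *dme-2* shoots against WT shoots, beside 5437 of 19954 loci. Leaving out both low callus libraries, added after seeing the data, called 4 for the interaction, beside 3691 of 18898 loci. In WT shoots against WT callus, the direction turned with limma on TPM for KRP5 (0.19), CYCA2;2 (0.04) and KRP4 (0.15), and for KRP4 with library size only (0.12). Of the fitted changes of named members under all alternatives, 241 of the first comparison kept direction and call, 16 lost the call and 4 turned. For *dme-2* shoots against WT shoots 196 kept both and 12 lost the call, for *dme-2* shoots against *dme-2* callus 176 kept both, for *dme-2* callus against WT callus 36 stayed without a call, and for the interaction 8 kept the call and 9 lost it. The causes were not tested. The replicate numbers did not pair the libraries: deviations of libraries with the same number correlated at -0.391 to 0.0258. With the replicate block 39 members were called for WT shoots against WT callus, beside 15579 of 19616 loci, which is near the same share. For *dme-2* shoots against WT shoots 35 were called, beside 9317 of 19114. Between the calli 0 were called, beside 1 of 17029. The block left 36 calls for *dme-2* shoots against *dme-2* callus, beside 13144 of 18729, and 1 for the interaction, beside 1450 of 18813.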
